A study of Rattus norvegicus with 4 samples.

Results

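Adhesion G protein-coupled receptors (GPCRs) were followed here as a gene family in rat choroid plexus and kidney proximal tubule. Members were the genes named ADGR or CELSR in the study's list of choroid plexus GPCRs, which gave 15 of the 106 genes on that list and 15 of the 32883 gene IDs measured. The list holds only genes at or above 0.5 TPM (transcripts per 1000000 transcripts) in the male choroid plexus, so that every member passed this cut-off in the male library by construction, and the list ends at 0.53 TPM (ADRA1B). The members closest to the cut-off were ADGRG6 with 0.55 TPM and ADGRD1 with 0.73 TPM.

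The 4 libraries came from Sprague Dawley rats aged 9 weeks, with no treatment given in the labels. Whole choroid plexus of the lateral and the fourth ventricles was pooled from 5 males in one library and from 5 females in another. Another library held cells sorted by FACS from the digested choroid plexus of 10 males with an antibody against NKCC1, a gate of large and strongly fluorescent cells labelled as epithelial, and the last library held proximal tubules picked by hand from digested kidneys of 5 males. The study's methods took these kidneys from the male rats of the choroid plexus pools, so that the male tissue and the proximal tubule may share animals. With 1 library per condition, no difference below has a replicate check, and all intervals cover counting error only.

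Adhesion GPCRs combine a long extracellular region, rich in adhesion modules, with a seven-helix receptor core. Most are cut within a juxtamembrane domain during maturation, and a short stretch beyond the cut, the tethered agonist, can activate the receptor. They bind matrix proteins or proteins of neighbouring cells, and members of the family act in planar polarity, myelination, vascular development of the brain and immune cell contact. The choroid plexus is an epithelium around a vascularised stroma with resident macrophages, and the whole tissue therefore mixes transcripts of several cell types.

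In the whole choroid plexus, ADGRG1 was the most abundant member, ahead of ADGRA3, ADGRL1 and ADGRF5. In the sorted cells, transcripts of the leukocyte receptors ADGRE1 and ADGRE5 stood at 3.32 and 2.35 times their TPM in the male tissue, where the median of all genes was lower. ADGRL1 stood 2.16-fold lower, near the lower quartile of all genes, and this difference was past 2-fold only against the male tissue in TPM. Among members at low levels, ADGRG6 stood at 2.75 times its TPM in the male tissue. ADGRL3 and ADGRD1 stood 4.39-fold and 2.35-fold lower, from 27 and 19 counts in the sorted cells. In the proximal tubule 6 members had counts. ADGRV1, at 162.28 TPM, made up 81.5% of the family's counts and 97.0% of its TPM there. The gene had an effective length of 634 bases in that library, against 5789 bases in the male choroid plexus.

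Promoter windows are shown for the members on which these differences rest. RefSeq windows of the GRCr8 build, from 250 bases before to 50 bases after a transcript start, were matched by symbol for 11 of the 15 members, and ADGRL1, ADGRA2, ADGRL3 and ADGRD1 were not matched. The first set holds ADGRE1, ADGRE5 and ADGRG6, the members with the largest TPM ratios of sorted cells to male tissue. They are written 5′ to 3′ on the strand of the gene, and capitals mark GAGGAA or GGGCGG, letters of ETS-type and GC-box motifs, or their reverse complements.

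ADGRE1, chr9:2329190-2329489, plus strand: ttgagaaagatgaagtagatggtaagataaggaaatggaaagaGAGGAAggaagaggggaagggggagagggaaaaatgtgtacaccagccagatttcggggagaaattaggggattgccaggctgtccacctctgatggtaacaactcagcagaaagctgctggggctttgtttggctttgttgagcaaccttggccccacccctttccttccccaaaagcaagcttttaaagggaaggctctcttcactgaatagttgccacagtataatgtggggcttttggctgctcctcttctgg

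ADGRE5, chr19:41303388-41303687, plus strand: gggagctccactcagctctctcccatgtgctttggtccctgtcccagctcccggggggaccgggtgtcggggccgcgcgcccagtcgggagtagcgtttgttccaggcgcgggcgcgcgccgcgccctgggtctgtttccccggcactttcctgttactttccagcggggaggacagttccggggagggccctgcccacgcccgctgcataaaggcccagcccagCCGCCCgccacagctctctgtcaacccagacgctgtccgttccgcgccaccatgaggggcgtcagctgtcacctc

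ADGRG6, chr1:10773826-10774125, minus strand: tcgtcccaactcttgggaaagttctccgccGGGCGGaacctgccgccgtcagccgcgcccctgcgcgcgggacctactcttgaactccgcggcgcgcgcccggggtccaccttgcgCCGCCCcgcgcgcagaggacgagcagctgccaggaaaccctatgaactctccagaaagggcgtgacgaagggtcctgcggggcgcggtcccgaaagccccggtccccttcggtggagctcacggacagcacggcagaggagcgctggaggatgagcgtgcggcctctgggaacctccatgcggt

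Of all 33469 windows, 27.6% held GAGGAA, 33.1% held GGGCGG and 14.2% held TATAAA on either strand. Among the windows of the members, GAGGAA was found for ADGRE1, ADGRF5, ADGRB2 and CELSR2, GGGCGG for ADGRE5 and ADGRG6, and TATAAA for ADGRB2 and ADGRL2. ADGRE1 and ADGRE5 thus shared none of these letters. The GC content was 48.7% for ADGRE1, 69.7% for ADGRE5 and 70.0% for ADGRG6, against a median of 51.7% over all windows.

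The second set holds ADGRV1, whose effective length differed between libraries. RefSeq gives 3 windows for this gene, of which a pair is shifted by a few bases and another lies 102884 bases further into the gene. The outermost and the inner window are printed, and neither held any of the 3 motifs.

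ADGRV1, outer start, chr2:13647358-13647657, minus strand: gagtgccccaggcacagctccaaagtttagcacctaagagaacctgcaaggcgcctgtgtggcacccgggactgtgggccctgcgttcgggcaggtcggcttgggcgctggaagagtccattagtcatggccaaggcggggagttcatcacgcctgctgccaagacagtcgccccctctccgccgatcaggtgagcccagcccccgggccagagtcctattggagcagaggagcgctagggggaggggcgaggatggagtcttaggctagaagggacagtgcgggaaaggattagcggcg

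ADGRV1, inner start, chr2:13544474-13544773, minus strand: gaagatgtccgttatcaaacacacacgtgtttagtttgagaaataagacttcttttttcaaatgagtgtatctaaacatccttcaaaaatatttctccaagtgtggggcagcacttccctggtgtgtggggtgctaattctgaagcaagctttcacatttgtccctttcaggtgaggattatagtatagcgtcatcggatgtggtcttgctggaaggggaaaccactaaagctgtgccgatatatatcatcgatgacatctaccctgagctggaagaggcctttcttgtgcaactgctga

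The libraries held between 23873318 and 28324976 expected counts, the read numbers per gene that RSEM estimated. Mitochondrially encoded genes took 4.32 to 5.34% of the counts in the 3 choroid plexus libraries and 70.7% in the proximal tubule, which left 7352952 counts there for all other genes. A count of 3 was taken as the floor, which is 1.06e-05 to 1.26e-05% of a library. The lowest count of a member above 0 was 19, in the sorted cells, so that this floor set no member aside. The epithelial markers TTR and KCNJ13 had 389654.96 and 685.19 TPM in the sorted cells, against 238565.42 and 1372.06 TPM in the male tissue. Of 12 epithelial markers, 2 had a higher TPM in the sorted cells than in the male tissue, 5 were past 2-fold lower and none was at 0. Of 12 immune markers with a gene name, 11 had a higher TPM in the sorted cells than in the male tissue and none was at 0, with a summed level of 2711 TPM in the sorted cells, against 393 TPM in male and 243 TPM in female tissue. Most of this sum was CD74, and without it the other 11 summed to 155 TPM, 48.4 TPM and 34.5 TPM. Of 5 proximal tubule markers with a gene name, the sodium phosphate cotransporter SLC34A1 had 18.88 TPM in that library and was listed at 0 in the other 3 libraries, and the organic anion transporter SLC22A6 had 7.98 TPM against 0.15 TPM in the male choroid plexus. The other 3 were not higher in the proximal tubule as deposited, with 4.15 against 120.98 TPM for SLC22A8, 6.02 against 6.18 TPM for SLC5A2 and 0.47 against 1.51 TPM for SLC13A3. Mitochondrially encoded genes took 72.1% of the TPM there and 8.37% in the male library. Without them the proximal tubule values were 14.9, 21.6 and 1.69 TPM in the same order. SLC5A2 was then well above its male value, SLC22A8 stayed lower and SLC13A3 was close.

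The 15 members summed to 136.57 TPM from 14127 expected counts in the male choroid plexus. The sum was 111.10 TPM from 11114 counts in the female choroid plexus, 117.90 TPM from 12495 counts in the sorted cells and 167.32 TPM from 4754 counts in the proximal tubule. As shares of all counts these were 0.0499% in the male library (95% Wilson interval 0.0491 to 0.0507%), 0.0438% in the female library (0.0430 to 0.0446%), 0.0523% in the sorted cells (0.0514 to 0.0533%) and 0.0189% in the proximal tubule (0.0184 to 0.0195%). Outside mitochondrially encoded genes the order turned, with 0.0527% in the male library (0.0518 to 0.0536%) and 0.0647% in the proximal tubule (0.0628 to 0.0665%), and without ADGRV1 these shares were 0.0516% (0.0507 to 0.0524%) and 0.0119% (0.0112 to 0.0128%). Within the summed TPM of the GPCR list, the family made up 7.91% in the male and 7.59% in the female tissue, 8.16% in the sorted cells and 87.9% in the proximal tubule. Genes were listed by male choroid plexus TPM, so that the proximal tubule value is not a share of all GPCRs there. It also depends on ADGRV1, with an effective length of 634 bases in that library. At or above 0.5 TPM were 14 members in the female tissue, 13 in the sorted cells and 6 in the proximal tubule. Of the other 91 genes of the GPCR list, 89.0%, 92.3% and 13.2% passed the same cut-off in these 3 libraries.

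**Figure D1:**
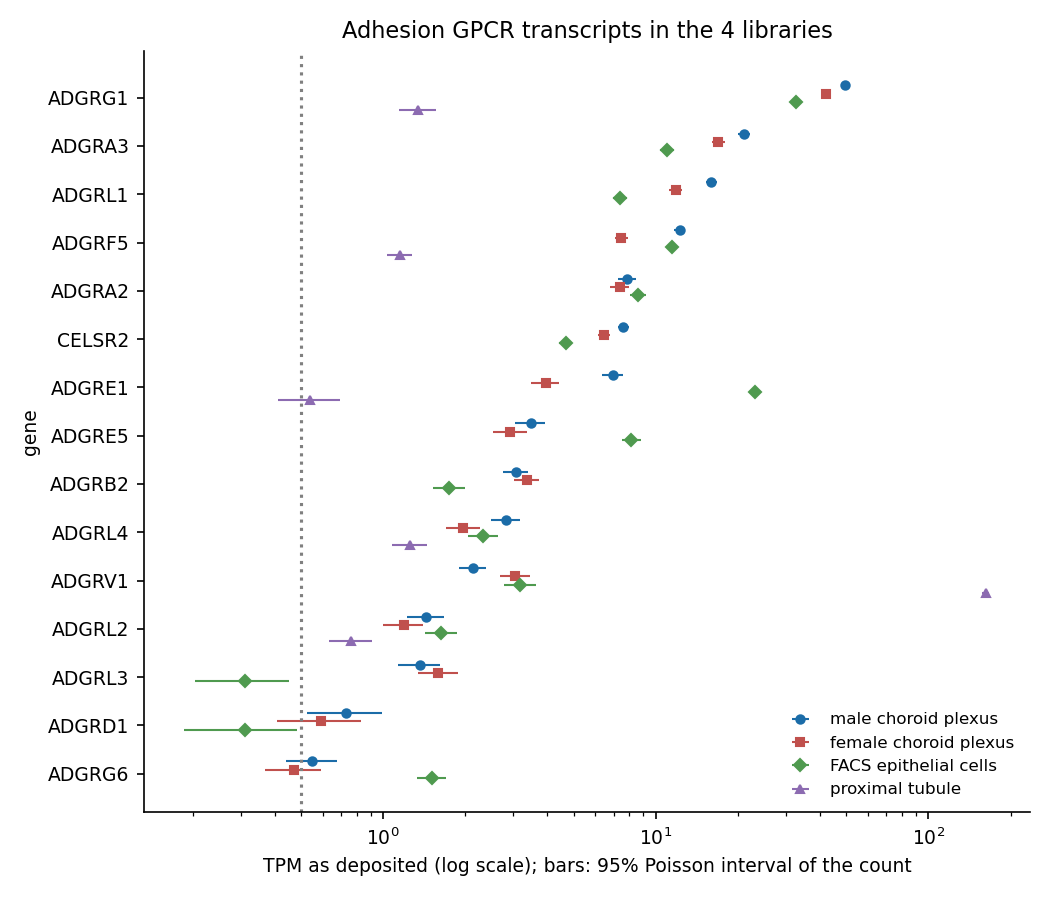
TPM of the 15 adhesion GPCR genes in the 4 libraries on a log axis, with 1 point per library and bars for the 95% Poisson interval of its count; the dotted line is the cut-off of 0.5 TPM, and genes without counts have no point. ADGRG1 is highest in the 3 choroid plexus libraries, ADGRE1 in the sorted cells lies far to the right of its tissue values, and ADGRV1 in the proximal tubule, at 162.28 TPM, lies far from every other point of that library.

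ADGRG1 (GPR56, ENSRNOG00000014963), a receptor known for binding collagen III at the surface of the developing brain, had 49.40 TPM from 3872 expected counts in the male choroid plexus. It had 41.96 TPM from 3232 counts in the female choroid plexus, 32.55 TPM from 2698 counts in the sorted cells and 1.34 TPM from 161 counts in the proximal tubule. The gene made up 36.2% of the family TPM in the male, 37.8% in the female and 27.6% in the sorted library. It placed 7 among the 106 GPCR genes in both tissue libraries and 10 in the sorted cells.

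ADGRA3 (GPR125, ENSRNOG00000004279), an orphan receptor, and ADGRA2 (GPR124, ENSRNOG00000012991), which acts with RECK in WNT7 signalling of brain endothelium, form one subfamily. ADGRA3 had 21.04 TPM in the male tissue, 16.92 TPM in the female tissue and 11.01 TPM in the sorted cells, and ADGRA2 had 7.85, 7.36 and 8.59 TPM in the same order. The ADGRA3 level thus was lowest in the sorted cells, while the values of ADGRA2 lay close together. Both genes were listed at 0 in the proximal tubule.

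The latrophilins ADGRL1 (ENSRNOG00000029134), ADGRL2 (ENSRNOG00000032660) and ADGRL3 (ENSRNOG00000030149) bind teneurins and FLRT proteins on other cells and are best known at synapses. ADGRL1 led them with 15.96 TPM in the male tissue, 11.83 TPM in the female tissue and 7.39 TPM in the sorted cells. ADGRL2 had 1.43, 1.19 and 1.63 TPM, and ADGRL3 had 1.36, 1.59 and 0.31 TPM. ADGRL2 was the only latrophilin with counts in the proximal tubule, where it had 0.76 TPM from 120 counts. ADGRL3 was below 0.5 TPM in the sorted cells, with 27 counts against 130 in the male tissue.

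ADGRF5 (GPR116, ENSRNOG00000011154), known for its part in surfactant balance of the lung and for expression in endothelium, and ADGRL4 (ELTD1, ENSRNOG00000033940), an endothelial receptor of sprouting vessels, were at moderate and low levels. ADGRF5 had 12.23 TPM from 1978 counts in the male tissue, 7.47 TPM from 1208 counts in the female tissue and 11.46 TPM from 2104 counts in the sorted cells. ADGRL4 had 2.81, 1.97 and 2.33 TPM in these libraries. Both had their lowest choroid plexus value in the female library, and both had counts in the proximal tubule, with 1.15 TPM for ADGRF5 and 1.25 TPM for ADGRL4.

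CELSR2 (ENSRNOG00000020058), a seven-pass cadherin of planar cell polarity that orients motile cilia in ependymal cells, had 7.60 TPM in the male tissue, 6.47 TPM in the female tissue and 4.68 TPM in the sorted cells, and was listed at 0 in the proximal tubule. Its effective length of 10298 bases in the male library was the longest of the family. Per transcript, CELSR2 was therefore near ADGRA2, although its 1918 counts were close to the 1978 counts of ADGRF5.

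ADGRE1 (F4/80, ENSRNOG00000046254), the classical macrophage marker of rodents, and ADGRE5 (CD97, ENSRNOG00000004489), a leukocyte receptor of CD55, belong to one subfamily. ADGRE1 had 6.95 TPM from 510 counts in the male tissue, 3.94 TPM from 284 counts in the female tissue, 23.06 TPM from 1790 counts in the sorted cells and 0.54 TPM from 60 counts in the proximal tubule. ADGRE5 had 3.47 TPM from 241 counts, 2.93 TPM from 200 counts and 8.14 TPM from 598 counts in the choroid plexus libraries, and was listed at 0 in the proximal tubule. For both, the sorted library held the highest value and the female library the lowest among the choroid plexus libraries. ADGRE1 held place 7 of the family in both tissues and place 2 in the sorted cells, behind ADGRG1.

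The remaining members were at low levels in the choroid plexus. ADGRB2 (BAI2, ENSRNOG00000014375), a receptor with thrombospondin repeats known from neurons, had 3.06 TPM in the male tissue, 3.36 TPM in the female tissue and 1.75 TPM in the sorted cells. ADGRV1 (ENSRNOG00000016306), the very large receptor of the ankle links of inner ear stereocilia, had 2.13, 3.05 and 3.18 TPM. ADGRD1 (GPR133, ENSRNOG00000023536), which couples to the stimulatory G protein, had 0.73, 0.59 and 0.31 TPM, from 42, 33 and 19 counts. ADGRG6 (GPR126, ENSRNOG00000011411), required for myelination by Schwann cells, had 0.55, 0.47 and 1.51 TPM, from 89, 74 and 259 counts. ADGRG6 was thus below the cut-off in the female tissue, and ADGRD1 was below it in the sorted cells.

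The order of the levels was partly unresolved by the counts. Of the 14 pairs of neighbours in the order, the 95% Poisson intervals overlapped in 6 in the male tissue, 7 in the female tissue and 6 in the sorted cells. In the male tissue, the 4 highest genes were each apart from the next one. ADGRA2, CELSR2 and ADGRE1 overlapped with their neighbours, as did ADGRE5 with ADGRB2, ADGRB2 with ADGRL4, ADGRL2 with ADGRL3, and ADGRD1 with ADGRG6. In the sorted cells, ADGRG1 and ADGRE1 stood apart from the rest, while ADGRF5 and ADGRA3 at the next places did not differ beyond their intervals.

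The sorted cells were compared with the whole male tissue to ask which adhesion GPCR transcripts were retained in the sorted population. Log2 ratios were computed after adding 1 to each TPM, so that differences of low genes are understated, and plain TPM ratios are given with their counting intervals. This comparison, that of the sexes and that of the proximal tubule all use the same male library. Across 14024 genes that passed 0.5 TPM in one of these libraries or both, the median log2 ratio was -0.58, and it was -0.25 over the 14700 genes that passed when the 10 highest genes of each library were left out. TTR alone took 389654.96 TPM in the sorted cells and 238565.42 TPM in the male tissue. The median of the 15 members was -0.19, and 10 of them lay above the median of all genes. Relative to the whole tissue, 6 members had a higher and 9 a lower TPM in the sorted cells. Among the other 91 genes of the GPCR list the median was 0.01, and 46 had a higher TPM.

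Past 2-fold higher in the sorted cells were ADGRE1 and ADGRE5, or 2 of the 15 members, against 4.61% of all genes tested and 14.3% of the other genes of the GPCR list. ADGRE1 had a log2 ratio of 1.60, a TPM ratio of 3.32 (counting interval 3.01 to 3.67) and lay at percentile 97.8 of all genes. ADGRE5 had a log2 ratio of 1.03, a TPM ratio of 2.35 (2.02 to 2.74) and lay at percentile 95.6. ADGRG6 had a TPM ratio of 2.75 (2.15 to 3.53), which came to 0.70 on the log2 scale with the pseudocount and passed 2-fold with a pseudocount of 0.1, as it did relative to the median of all genes. Against the female in place of the male tissue, the TPM ratios were 5.85 (5.16 to 6.66) for ADGRE1, 2.78 (2.36 to 3.28) for ADGRE5 and 3.21 (2.47 to 4.22) for ADGRG6.

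Past 2-fold lower was ADGRL1 alone, 1 of the 15 members against 25.5% of all genes tested and 7.69% of the other genes of the GPCR list. Its log2 ratio was -1.02, its TPM was 2.16-fold lower (1.999 to 2.33), and 24.7% of all genes had a lower ratio. Relative to the median of all genes its log2 ratio was -0.43, and no member then lay past 2-fold lower. Against the female tissue ADGRL1 was 1.60-fold lower (1.47 to 1.74), and with counts scaled without regard to length its ratio to the male tissue was 0.623, both short of 2-fold. ADGRL3 was 4.39-fold lower in TPM (2.88 to 6.91) and ADGRD1 2.35-fold lower (1.34 to 4.29), both from under 30 counts in the sorted library. With a pseudocount of 0.1 ADGRL3 and ADGRD1 joined ADGRL1 past 2-fold, against 34.8% of all genes.

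Of the other members, ADGRA3 was 1.91-fold lower (1.77 to 2.07), ADGRB2 1.75-fold lower (1.47 to 2.08), CELSR2 1.62-fold lower (1.51 to 1.75) and ADGRG1 1.52-fold lower (1.44 to 1.59). The log2 ratios of ADGRG1 and CELSR2, -0.59 and -0.60, were close to that of the median gene. ADGRF5 had a TPM ratio of 0.937 (0.881 to 0.997), ADGRL4 of 0.829 (0.694 to 0.990), ADGRA2 of 1.09 (0.989 to 1.21) and ADGRL2 of 1.14 (0.925 to 1.41). The counts did not separate ADGRA2 and ADGRL2 from a ratio of 1. ADGRV1 had a TPM ratio of 1.49 (1.25 to 1.78). Counts were also scaled to 1000000 per library outside mitochondrially encoded genes (CPM), without regard to length. The ratio to the male tissue was then 1.25 for ADGRF5, 1.03 for ADGRL4 and 0.858 for ADGRV1, each on the other side of 1. For ADGRA2 and ADGRL2 the CPM ratios were 1.36 and 1.54.

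**Figure D2:**
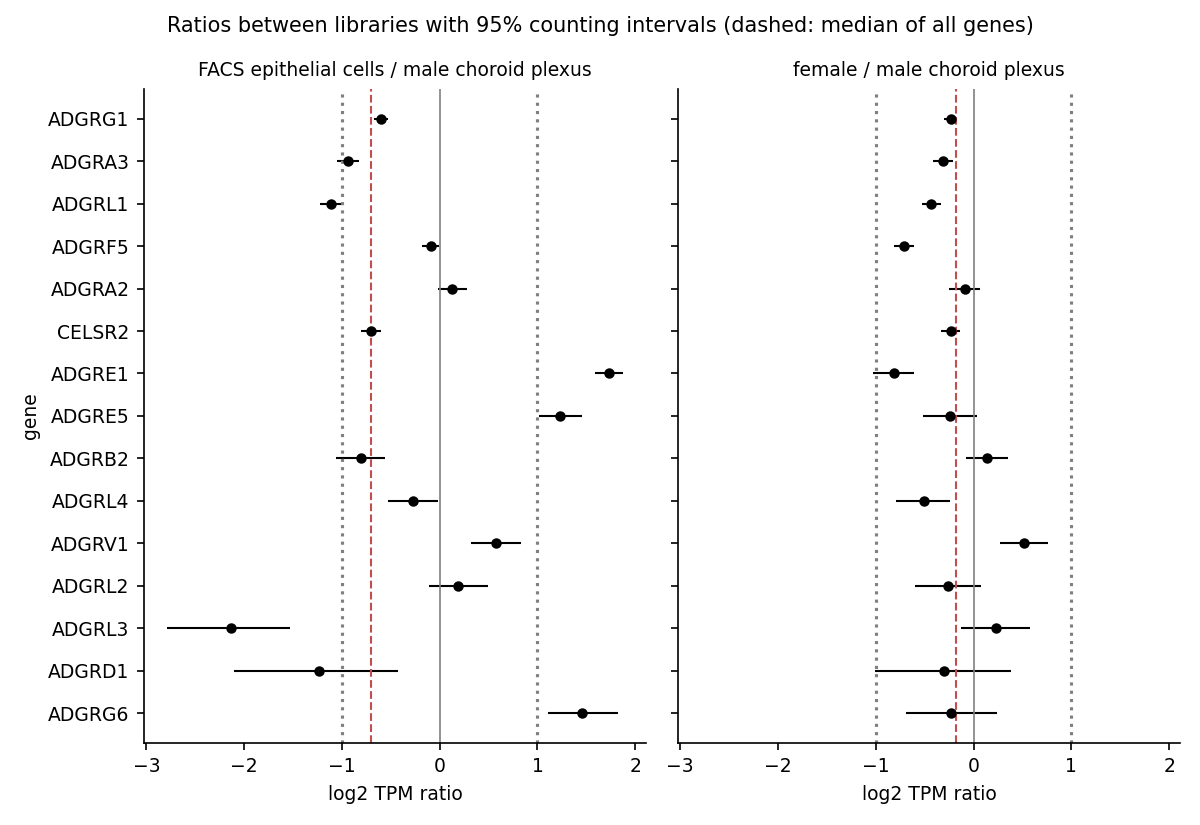
Log2 TPM ratios of the 15 genes, without a pseudocount, for the sorted cells over the male choroid plexus (left) and the female over the male choroid plexus (right), with bars for the 95% counting interval; dotted lines mark 2-fold, the solid line no difference, and the dashed line the median of all genes on the same scale without a pseudocount, -0.71 on the left and -0.18 on the right. In the left panel ADGRE1, ADGRE5 and ADGRG6 lie beyond the right dotted line and ADGRL3 (-2.13), ADGRD1 (-1.24) and ADGRL1 (-1.11) beyond the left one, and no gene's point lies beyond 2-fold in the right panel.

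Marker lists were set beside the same comparison. Of all genes tested, 21.8% had a higher TPM in the sorted cells, 4.61% were past 2-fold higher and 25.5% past 2-fold lower. The 12 immune markers, of which 7 lay past 2-fold higher, had a median log2 ratio of 1.14, and CSF1R, the receptor that maintains macrophages, went from 16.53 TPM in the male tissue to 79.12 TPM in the sorted cells. CD74, the invariant chain of antigen presentation, went from 344.62 to 2556.16 TPM. This list was assembled with earlier results of these data known. The 12 epithelial markers had a median of -0.72, with 2 higher and 5 past 2-fold lower, and included TTR with a log2 ratio of 0.71. Of the 9 endothelial markers, 5 had a higher TPM, none was past 2-fold higher and 1 (APLNR) was past 2-fold lower, with a median of 0.19 and no gene at 0. Their sum went from 194 TPM in the male tissue to 271 TPM in the sorted cells, and without PLVAP from 89.1 to 93.4 TPM. The 8 mural and fibroblast markers had a median of -0.24, with 4 higher, 1 past 2-fold higher and 2 past 2-fold lower. They summed to 3216 TPM in the male tissue and 2325 TPM in the sorted cells, again with none at 0. Most of this sum was IGF2, with 2848.12 and 1918.8 TPM, so that the fall of the sum does not describe the other markers. The part of immune cells in the values of ADGRE1 and ADGRE5 was not tested. In bulk RNA, more cells of a type and more RNA per cell cannot be told apart.

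**Figure D3:**
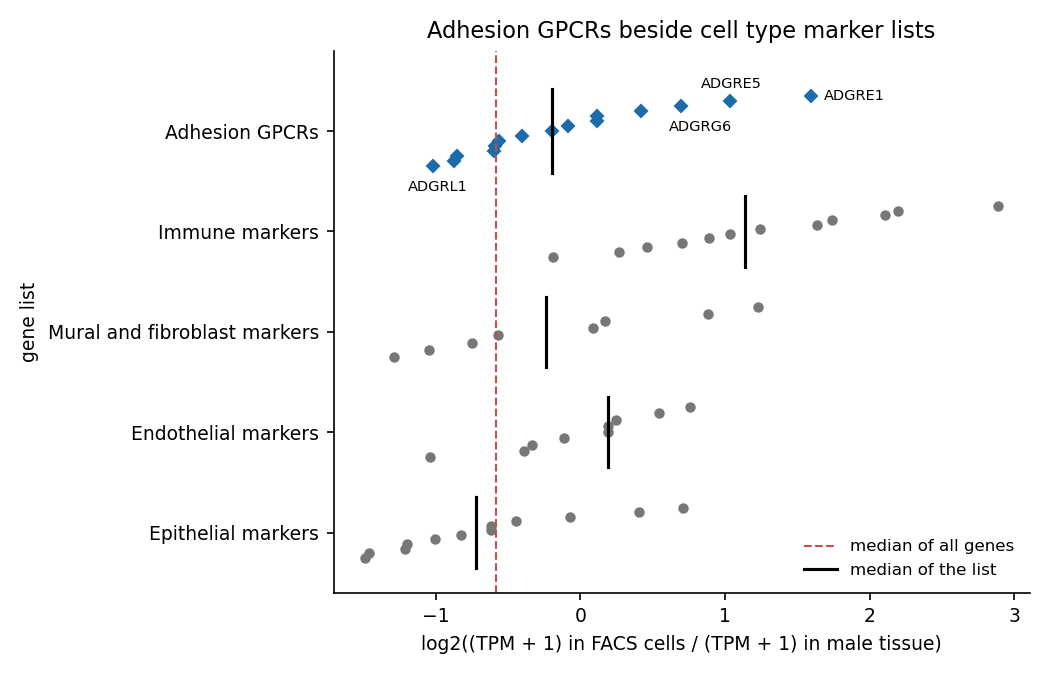
Log2 ratio of TPM plus 1, sorted cells over male choroid plexus, for each gene of the 4 marker lists (circles) and for the adhesion GPCRs (diamonds), with 1 point per gene, a vertical bar for the median of each list and a dashed line for the median of all genes, -0.58. ADGRE1 at 1.60 lies beyond every epithelial, endothelial and mural or fibroblast marker and within the range of the immune markers, ADGRE5 at 1.03 lies within the ranges of both the immune and the mural and fibroblast lists, and ADGRL1 at -1.02 lies within all ranges but the immune one.

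The pattern over the 4 libraries was set beside the other 105 genes of the GPCR list, by the Euclidean distance between log2(TPM + 1) values centred on their mean. TPM was used as deposited, with mitochondrially encoded genes kept in the proximal tubule. For genes at 0 there, the distance also depends on their level. Nearest to ADGRG1 were the Frizzled receptor FZD6 (distance 0.181), ADGRA3 (0.226) and the orphan GPR137 (0.356), where the median distance was 2.44. FZD6 had 18.04 TPM in the male tissue, 16.28 TPM in the female tissue and 11.15 TPM in the sorted cells. Nearest to ADGRE1 were PTAFR, the receptor of platelet-activating factor (0.393), the complement receptor C5AR1 (0.478) and the oxysterol receptor GPR183 (0.566). PTAFR had 2.97, 1.76 and 16.12 TPM in the 3 choroid plexus libraries. Nearest to ADGRF5 were the chemerin receptor CMKLR1 (0.157), the vasopressin receptor AVPR1A (0.294) and the endothelin receptor EDNRA (0.396), against a median of 1.40. These distances rest on 4 libraries and describe them only.

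The female and male choroid plexus were compared to ask how the levels of the members differed between these libraries. Members were listed by their male TPM, so that an adhesion GPCR present only in the female tissue cannot appear here. The genes tested passed 0.5 TPM in either tissue, which is an unlike selection. None of the 15 members differed by 2-fold in either direction, where 0.44% of the 13869 genes tested were past 2-fold higher and 0.959% past 2-fold lower in the female tissue. The median log2 ratio of the members was -0.19 and that of all genes -0.16, and 12 members had a lower TPM in the female tissue, as did 76.7% of all genes. For 8 members the counting interval of the TPM ratio left out 1. This count was not made over all genes, whose median log2 ratio was itself -0.16, so that it does not set the members apart.

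The lowest female to male ratios were those of ADGRE1, which was 1.76-fold lower in the female tissue (1.52 to 2.05), and ADGRF5, which was 1.64-fold lower (1.52 to 1.76). Only 2.42% and 2.89% of all genes had a lower log2 ratio than these, which were -0.69 and -0.64. ADGRL4 was 1.43-fold lower (1.18 to 1.73) and ADGRL1 1.35-fold lower (1.26 to 1.45). ADGRG1 was 1.18-fold lower (1.12 to 1.23), close to the median gene. Beside these values, 11 of the 12 immune, 8 of the 9 endothelial, 8 of the 8 mural and fibroblast and 10 of the 12 epithelial markers had a lower TPM in the female tissue, as did 76.7% of all genes. Their median log2 ratios were -0.46, -0.34, -0.35 and -0.20. CSF1R had 10.68 TPM in the female and 16.53 TPM in the male tissue. The part of any of these cell types in the lower ADGRE1 and ADGRF5 was not tested, and with 1 pool per sex, sex and pool cannot be told apart.

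Higher in the female tissue were ADGRV1, with a TPM ratio of 1.43 (1.21 to 1.69), ADGRL3 with 1.17 (0.915 to 1.49) and ADGRB2 with 1.098 (0.947 to 1.27). The counting intervals of ADGRL3 and ADGRB2 included 1. The TPM ratio of ADGRV1 came with fewer counts in the female library, 263 against 302, and the CPM ratio was 0.962.

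The effective length, which RSEM averages over the isoforms of a gene by their estimated abundance, separated ADGRV1 from the other members. It was 5789 bases for ADGRV1 in the male tissue, 3585 bases in the female tissue, 2659 bases in the sorted cells and 634 bases in the proximal tubule. TPM divides counts by this length, so that a shorter estimate gives a higher TPM from the same counts. The length was at least 1.5 times shorter than in the male library for ADGRV1 and no other member, which held in the female tissue for 0.0543% of the 12899 genes that had 10 counts and 0.5 TPM in both libraries, in the sorted cells for 0.401% of genes and in the proximal tubule for 2.52% of genes. Counting ADGRV1 itself, 4 genes were shortened at least as much in the female tissue and 11 in the sorted cells. In the proximal tubule it was the most shortened of 4688 genes. RefSeq annotates more than one start site for ADGRV1, as printed above. Which isoforms of the files' own annotation took the counts was not analysed here.

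No other member changed its length by 1.5 times. Without ADGRV1, the ratio to the male length lay between 0.952 and 1.05 in the female tissue and between 0.993 and 1.12 in the sorted cells, where ADGRA3 had the highest ratio. In the proximal tubule it lay between 0.906 for ADGRL2 and 1.23 for ADGRF5, and 3 of the 6 members there were within 10% of the male length. These ratios cover only members with 0.5 TPM and 10 counts in both libraries, which were 14, 13 and 6 in these 3 libraries.

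**Figure D4:**
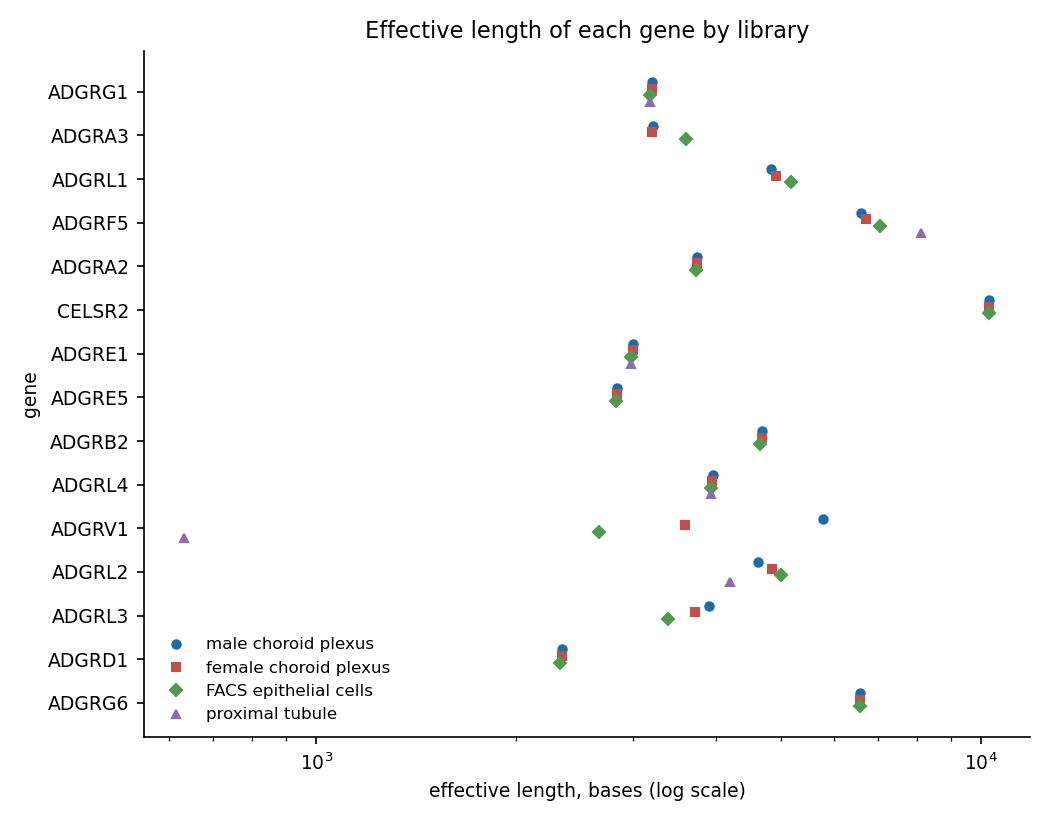
Effective length of the 15 genes in bases on a log axis, with 1 point for each library in which the gene had counts. The points of most genes fall together, whereas those of ADGRV1 spread from 634 bases in the proximal tubule to 5789 bases in the male choroid plexus.

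The proximal tubule was compared with the male choroid plexus as another epithelium that moves much fluid. For this comparison the 13 mitochondrially encoded genes were removed from both libraries and the rest rescaled to 1000000 TPM. Counts were present for 6 of the 15 members, and 9 were listed at 0, namely ADGRA2, ADGRA3, ADGRB2, ADGRD1, ADGRE5, ADGRG6, ADGRL1, ADGRL3 and CELSR2. Among genes with at least 0.5 TPM in the male tissue, 58.6% were listed at 0 in the proximal tubule, among them widely used genes such as GNAS. The lowest count of a member above 0 was 60, so that no member lay between 0 and that count. No fold is given for the genes listed at 0.

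ADGRV1 had 3876 expected counts in the proximal tubule. It made up 81.5% of the family's counts there and 97.0% of its TPM, the latter with the effective length of 634 bases. It placed first among the 106 GPCR genes and, after the rescaling to 582 TPM, at place 248 of all genes. The 106 genes were listed by their male choroid plexus TPM, so that a GPCR present only in the proximal tubule cannot appear among them. The male choroid plexus had 302 counts and 2.32 TPM on the same scale. The TPM ratio was 250 (223 to 282), and 24.9% of the 5973 genes with counts in both libraries were past 2-fold higher in the proximal tubule. The CPM ratio was 46.8 and the effective length was 9.14 times shorter, with the remainder set by the total to which TPM is scaled. With the male length in place of its own, ADGRV1 would have had 63.7 TPM in the proximal tubule. Reads from an overlapping gene cannot be told apart from those of ADGRV1 in these tables, since the strandedness of the counting was not given in the sources used here.

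Past 2-fold lower in the proximal tubule were ADGRG1, ADGRE1 and ADGRF5, 3 of the 6 members with counts, against 48.2% of the genes tested. ADGRG1 had 4.81 TPM against 53.9 TPM on the rescaled values and was 11.2-fold lower (9.58 to 13.2). ADGRE1 was 3.92-fold lower (2.99 to 5.21) and ADGRF5 3.24-fold lower (2.89 to 3.64), but the CPM ratio of ADGRF5 was 0.649 and not past 2-fold. ADGRL4 and ADGRL2 had TPM ratios of 1.46 (1.21 to 1.77) and 1.75 (1.37 to 2.23), with 185 and 120 counts in the proximal tubule. The median log2 ratio of the genes tested was -0.87, and relative to it ADGRG1 was the only member past 2-fold lower, while ADGRL4 and ADGRL2 joined ADGRV1 past 2-fold higher.

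Binding partners and signalling proteins of the family were followed where a name was at hand, which was so for 4 of 21 partners, 2 of 9 planar polarity genes and 7 of 10 G protein genes. Among the partners, CD81, a tetraspanin that associates with ADGRG1, had 1616 TPM in the male tissue, 1441 TPM in the female tissue and 1149 TPM in the sorted cells. PRNP, the prion protein that activates ADGRG6, had 456.02, 465.89 and 446.83 TPM. RECK, the partner of ADGRA2, had 87.09, 70.51 and 42.38 TPM, and PTK7, a ligand of ADGRD1, had 21.88, 19.29 and 17.17 TPM. In the sorted cells 1 of the 4 partners, RECK, was past 2-fold lower, against 25.5% of all genes. All 4 were listed at 0 in the proximal tubule, as were 58.6% of all genes with at least 0.5 TPM in the male tissue.

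The planar polarity receptors FZD3 and FZD6, which act with CELSR proteins, had 8.98 and 18.04 TPM in the male tissue and 2.7 and 11.15 TPM in the sorted cells, where FZD3, 1 of the 2 genes, was past 2-fold lower. Of the G protein genes, GNA12, which links adhesion GPCRs to RHOA, had 76.34 TPM in the male tissue, 61.98 TPM in the female tissue and 51.15 TPM in the sorted cells, and RHOA had 217.11, 194.31 and 167.23 TPM. Of the 7, GNAI2 had a higher TPM in the sorted cells, 165.29 against 126.83 TPM, as did 21.8% of all genes, and GNB1 was past 2-fold lower, 72.91 against 166.80 TPM, as were 25.5% of all genes. In the female tissue none of these 13 genes differed from the male tissue by 2-fold.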

How the data were processed

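RNA of rat choroid plexus (male, female and sorted cells) and of kidney proximal tubule was sequenced as paired-end reads of 150 bases, in 4 libraries of pooled animals. Reads were mapped by the authors against Rnor_6.0 with Ensembl release 103, using STAR 2.7.2a, and RSEM 1.3.3 gave the deposited values. Per gene, the authors deposited an expected count, an effective length (bases) and a TPM scaled to 1000000 per library, all used here, beside an FPKM that was left aside. Strandedness was not given in the sources used here.

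Symbols came from the study's supplementary lists, which name 2452 of the 32883 IDs, and promoter windows from RefSeq (GRCr8, matched by symbol). The members, marker lists and partner lists were chosen with earlier results of these data known. The genes named are all members, the listed partners and markers with a name, and the 3 nearest patterns of ADGRG1, ADGRE1 and ADGRF5. CSF1R, CD74, TTR, KCNJ13, PLVAP, APLNR and IGF2 were picked as examples from the marker lists after their values were seen.

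Expected counts were rounded for exact Poisson intervals and for conditional binomial intervals of ratios (95%), with effective lengths taken as fixed. A difference past 2-fold in log2(TPM + 1) was counted over genes at or above 0.5 TPM in either library, for the proximal tubule over genes with counts in both. With 1 library per condition no test was run. Python 3.11.15, numpy 2.4.6, pandas 2.3.3, scipy 1.17.1 and matplotlib 3.10.9 were used, and the steps were tested on simulated data. Alternatives were other cut-offs and pseudocounts, removal of the 10 highest genes or of mitochondrially encoded genes, CPM, centring on the median of all genes, and the female tissue as reference. A background limited to the length range of the members, shares outside mitochondrially encoded genes and list sums without CD74 or PLVAP were chosen after the data were seen.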

Additional observations from a re-analysis of the deposited data

How the results depend on the processing

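No paired analysis was possible because each condition has 1 library. The number of members at or above 0.5 TPM stayed within 1.5 times its value with thresholds of 0.1 TPM, 1 TPM or 10 expected counts. The proximal tubule lay on that limit, with 6 members at 0.5 TPM and 4 at 1 TPM. Past 2-fold lower in the sorted cells against the male tissue were 1 member as reported, 3 with a pseudocount of 0.1, 2 with 0.5, another one (ADGRL3 in place of ADGRL1) with CPM, and 0 without the 10 highest genes of each library, relative to the median of all genes, or with the female tissue as reference. The median log2 ratio of the members in this comparison, -0.19, reversed to 0.12 without the 10 highest genes and to 0.046 with the female tissue as reference. In the proximal tubule, 3 members were past 2-fold higher with CPM or relative to the median of all genes, and the 3 past 2-fold lower became 1 relative to that median and 2 with CPM, where ADGRF5 was lost. Without mitochondrially encoded genes the summed TPM of the members was 149 in the male, 119 in the female, 126 in the sorted and 600.1 in the proximal tubule library, and without the 10 highest genes it was 212, 185, 243 and 577. Of 165 single ratios recomputed for the members, 128 moved by less than their counting interval and 37 moved further. Most of these 37 were ratios of sorted cells to male tissue, recomputed without the 10 highest genes, with CPM or with the female reference. The ratios of sorted cells to male tissue were thus less stable than the pooled count shows. In that comparison ADGRE1, ADGRE5 and ADGRL1 kept their sign throughout. ADGRF5 and ADGRL4 turned with CPM, without the 10 highest genes and with the female reference, and ADGRV1 turned with CPM. In the female to male comparison ADGRV1 turned with CPM and ADGRA2, from -0.082, to 0.023 with CPM and to 0.0054 without the 10 highest genes. Among the 5105 genes in the length range of the members, 2.17% were past 2-fold higher and 30.2% past 2-fold lower in the sorted cells, a background chosen after the data were seen. Depth limits ADGRD1 and ADGRL3 most, with 19 and 27 counts in the sorted cells.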
